A study of Mus musculus and Homo sapiens with 12 samples.

Results

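The small nucleolar RNA (snoRNA) host genes described here are GAS5, ZFAS1, EPB41L4A-AS1, SNHG1, SNHG5, SNHG6, SNHG8, SNHG12, SNHG15 and SNHG16, whose introns carry snoRNAs. They were found by gene symbol, compared in capitals: 10 of 18190 genes in the human PANC1 model and 9 of 23201 in the mouse KPC model, each held as 1 comparison table made by the authors (the KPC rows hold no EPB41L4A-AS1). The genes were chosen by their log2 fold changes and adjusted p-values in both tables, so their fold changes and calls are a description and carry no test. RNA was sequenced from 12 samples, 3 biological replicates in each of 4 groups, all labelled wild type. KPC LM2 is the second-generation liver-metastatic derivative of KPC, a mouse pancreatic ductal carcinoma line. PANC1 LM3 is the third-generation derivative of PANC1, an established human pancreatic ductal carcinoma line. Per the labels' protocols, 500000 cells of each line were put into the spleen on day 1 and the RNA came from liver tumours taken on day 21. The sample titles name cells, and the host animals are not described. Each selected line is set against its parental line; the tables do not say which of the 2 is the numerator of the fold change. Signs are therefore those of the tables, and no sign is credited to the selected or the parental line. In such bulk RNA, fewer cells of a type and less RNA per cell cannot be told apart.

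A snoRNA host gene makes a spliced RNA and, from its introns, snoRNAs. Box C/D snoRNAs guide ribose methylation and box H/ACA snoRNAs guide pseudouridylation, mostly of ribosomal RNA. The spliced host RNA codes for little or no protein, and many such RNAs begin with a terminal oligopyrimidine (TOP) tract, the run of C and T also found at the start of ribosomal protein mRNAs. Their short open reading frames draw in ribosomes, after which nonsense-mediated decay removes the RNA, so host RNA levels are known to respond to translation and growth as well as to transcription. GAS5 takes its name from its build-up in growth-arrested cells.

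The start sites of the mouse members are shown because the tract at the start is a feature they can share with ribosomal protein genes. RefSeq promoter windows (build GRCm38.p6, another build than the authors' mm39) were found for 8 of the 9 mouse members, Gas5 with 2 starts. Each line runs 5′ to 3′ from 40 bases before to 40 bases after the annotated start, and capitals mark the longest run of C and T that touches the stretch from 5 bases before to 20 after it.
Gas5, downstream start (chr1:161035126-161035205, plus strand): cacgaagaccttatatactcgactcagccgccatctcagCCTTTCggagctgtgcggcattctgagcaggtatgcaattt
Snhg1 (chr19:8723447-8723526, plus strand): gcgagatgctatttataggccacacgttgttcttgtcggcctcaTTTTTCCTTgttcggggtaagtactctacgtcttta
Snhg12 (chr4:132308638-132308717, plus strand): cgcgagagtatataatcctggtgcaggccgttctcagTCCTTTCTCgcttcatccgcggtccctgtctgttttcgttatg
Snhg8 (chr3:123508297-123508376, minus strand): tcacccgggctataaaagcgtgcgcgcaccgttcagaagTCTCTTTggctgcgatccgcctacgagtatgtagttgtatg
Snhg5 (chr9:88522858-88522937, minus strand): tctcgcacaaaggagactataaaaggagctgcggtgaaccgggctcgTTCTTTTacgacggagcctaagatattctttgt
Snhg16 (chr11:116671620-116671699, plus strand): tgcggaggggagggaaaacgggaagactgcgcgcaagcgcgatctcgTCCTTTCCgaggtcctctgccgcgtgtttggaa
Snhg15 (chr11:6528721-6528800, minus strand): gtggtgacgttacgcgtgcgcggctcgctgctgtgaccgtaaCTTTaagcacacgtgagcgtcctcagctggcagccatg
Zfas1 (chr2:167062894-167062973, plus strand): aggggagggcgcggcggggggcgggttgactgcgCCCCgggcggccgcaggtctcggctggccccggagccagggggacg
Gas5, upstream start (chr1:161034561-161034640, plus strand): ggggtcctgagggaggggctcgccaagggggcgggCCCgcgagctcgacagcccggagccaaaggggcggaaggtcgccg
A run of 6 or more C and T bases touched that stretch in 6 of the 9 windows, against 32.1% of all 32851 windows. These were Snhg1, Snhg12, Snhg8, Snhg5, Snhg16 and the downstream start of Gas5. The run spanned the start itself in Snhg12, Snhg8 and Gas5 downstream. It began only at transcribed base 5 in Snhg1 and base 8 in Snhg5 and Snhg16, so there it is not at the start. The run was 9 bases in Snhg1 and in Snhg12. In Zfas1 and Snhg15 it was 4 bases and at the upstream Gas5 start 3. The letters TATA, which read the same on both strands, lay 40 to 21 bases before 4 of the 9 starts (Gas5 downstream, Snhg1, Snhg12 and Snhg8), against 5.34% of all windows; in Snhg5 they end 20 bases before the start, just outside. CACGTG, the E-box letters that MYC is known to bind, also the same on both strands, occurred in the 300 bases of 1 window, that of Snhg15, against 7.15% of all windows. The length of the run and the place of TATA were set after the sequences had been seen, and a match of letters is no evidence that a factor binds.

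Depth per library is unknown, since the tables hold no value per sample. Over all rows of the authors' deposited table the mean normalised counts added up to 9106250 (KPC) and 15415400 (PANC1). All 5 pancreatic carcinoma markers (KRT7, KRT8, KRT18, KRT19, EPCAM) were listed in both, at mean normalised counts of 524 to 28158 in KPC and 45.4 to 49702 in PANC1. In KPC the 10 listed hepatocyte, leukocyte, endothelial and fibroblast markers were at 3.45 to 33.1. PANC1 had rows for 1 of 4 hepatocyte, 2 of 3 leukocyte, 1 of 2 endothelial and 1 of 2 fibroblast markers. Of these, CD68 at 1103 and COL1A1 at 173 were the only ones above 64. PANC1 rows are human genes and the host animals are not described, so whether these rows count host cells cannot be told. In KPC the fold change also moved with level: the median log2 fold change was -0.08 over all 20050 tested genes and 0.22 over the 9767 genes at or above a mean normalised count of 64, where all 9 members lie. The corresponding PANC1 medians were -0.0020 over 17838 genes and -0.033 over 11301. KRT8 (-4.35 ± 0.06), KRT18 (-3.35 ± 0.05), KRT19 (-3.79 ± 0.05) and the endothelial marker CDH5 (-4.09 ± 0.95) were called negative, and EPCAM (0.97 ± 0.10) and CD68 (1.91 ± 0.07) positive, in PANC1 in the authors' deposited table. The marker calls in KPC were Krt7 (1.18 ± 0.18), Epcam (-1.14 ± 0.28) and Col1a1 (-1.84 ± 0.63) in the authors' deposited table. Their part in the host gene values was not tested.

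Between PANC1 LM3 and PANC1 samples the host genes were mostly positive and far apart from each other. GAS5 and ZFAS1 had the largest fold changes, SNHG15, SNHG6 and EPB41L4A-AS1 came next, SNHG5, SNHG8 and SNHG1 were lower, SNHG12 was near 0 and SNHG16 was negative. Of the 10 genes, 9 were called, 8 positive and 1 negative; a call means that the authors' deposited table lists an adjusted p under 0.05. Over all tested PANC1 genes 52.5% were called, 26.0% positive and 26.5% negative, and over those at 64 or more 69.3%, 32.7% positive and 36.5% negative. Their median log2 fold change was 0.94.

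GAS5, host of 10 box C/D snoRNAs in human, was listed at 2.01 ± 0.05 on the log2 scale in the authors' deposited table. Throughout, ± is the listed standard error, except on differences between a host and a snoRNA row. GAS5 thus had a 4.03-fold difference with a 95% interval of 3.75 to 4.33. Its mean normalised count was 3971, and 1.19% of the PANC1 genes at 64 or more exceeded its fold change there. It is 1 of 25 PANC1 genes whose p is listed as 0. ZFAS1, which runs antisense to the start of ZNFX1 and hosts SNORD12 and its relatives, was at 1.88 ± 0.06 in the authors' deposited table, 3.67-fold, with a mean normalised count of 2732. The 95% interval of ZFAS1, 1.76 to 1.99 on the log2 scale, overlaps that of GAS5, 1.91 to 2.12. These 2 stand apart from the others.

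SNHG15, host of SNORA9, was listed at 1.47 ± 0.08 in the authors' deposited table with a mean normalised count of 905, a 2.77-fold difference. SNHG6, host of SNORD87, was at 1.09 ± 0.08 (2.14-fold, mean normalised count 839) in the authors' deposited table. EPB41L4A-AS1, the antisense neighbour of EPB41L4A and host of SNORA13, was at 1.03 ± 0.13 (2.04-fold) and has the lowest mean normalised count of the 10, 206, in the authors' deposited table. The intervals of SNHG6 and EPB41L4A-AS1, 0.94 to 1.25 and 0.77 to 1.29 on the log2 scale, overlap, while that of SNHG15, 1.32 to 1.62, lies above both. SNHG5, host of SNORD50A and SNORD50B, was at 0.86 ± 0.06 in the authors' deposited table (1.81-fold, mean normalised count 2083). SNHG8, host of SNORA24, was at 0.83 ± 0.10 in the authors' deposited table (1.78-fold, mean normalised count 452). SNHG1, which hosts SNORD22 and the SNORD25 to SNORD31 group, was at 0.66 ± 0.06 in the authors' deposited table (1.58-fold, mean normalised count 2204). Neighbours in this order from SNHG6 down to SNHG1 have overlapping intervals.

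SNHG12, host of 3 box H/ACA snoRNAs and SNORD99, was at -0.05 ± 0.11 in the authors' deposited table, with a mean normalised count of 364 and an interval of -0.26 to 0.16; it is the 1 member not called, and it was 0.00099, on the positive side, when the running median over level was subtracted. SNHG16, host of SNORD1A, SNORD1B and SNORD1C, was at -0.57 ± 0.06 in the authors' deposited table, a difference of 1.48-fold on the negative side with a mean normalised count of 3220. SNHG16 is among the 2 most abundant of the 10 rows by reads, next to GAS5, and carries the opposite sign.

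**Figure D1:**
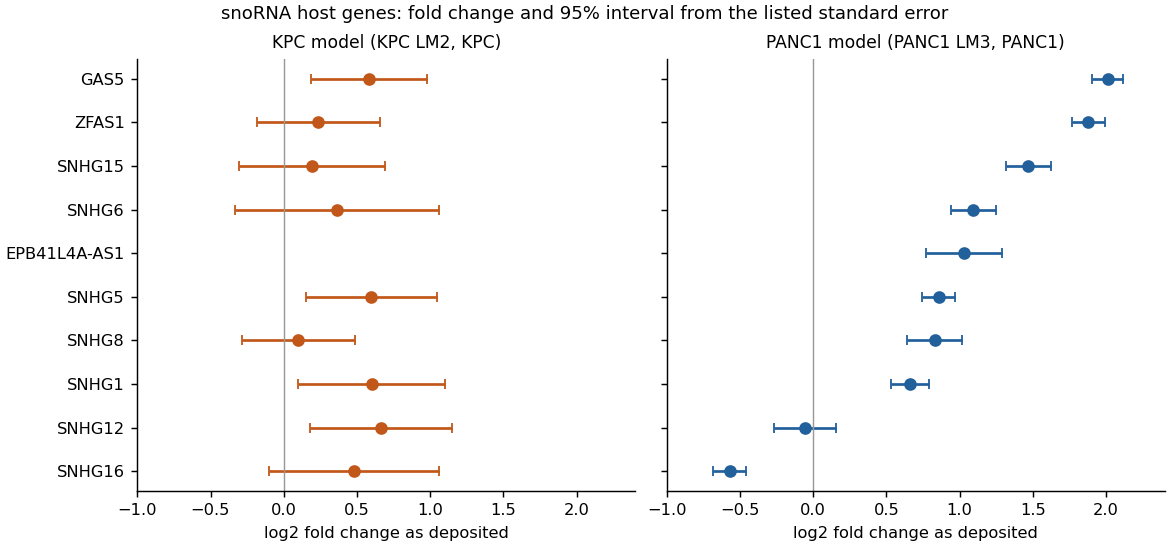
Log2 fold change as deposited (horizontal axis) of each snoRNA host gene (vertical axis) in the KPC model (left) and the PANC1 model (right). Points are the listed values and bars the 95% interval from the listed standard error; GAS5 stands at 2.01 and SNHG16 at -0.57 in PANC1, while all 9 KPC values lie between 0.10 and 0.66 with wider bars, and EPB41L4A-AS1 has no KPC row.

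Between KPC LM2 and KPC samples all 9 host genes were listed with positive values, all of them small, and 1 of the 9, Gas5, was called. Over all tested KPC genes 10.4% were called, 5.77% positive and 4.60% negative, and over those at 64 or more 12.7%, 10.6% positive and 2.11% negative. The log2 fold changes ran from 0.10 to 0.66 with a median of 0.48, against 0.22 for all genes at 64 or more, whose quartiles are -0.02 and 0.45. The listed standard errors of the 9 were 0.20 to 0.36, against 0.05 to 0.13 for the PANC1 members. Snhg12 in KPC and SNHG1 in PANC1 thus had the same value, 0.66, and the first was not called while the second was.

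Snhg12 had the largest KPC value, 0.66 ± 0.25 in the authors' deposited table, with a mean normalised count of 193 and an interval of 0.18 to 1.15. Snhg1 (mean normalised count 1122) was at 0.60 ± 0.26 and Snhg5 (662) at 0.60 ± 0.23, both in the authors' deposited table. Gas5 was at 0.58 ± 0.20 in the authors' deposited table, with a fold interval of 1.14 to 1.97 and a mean normalised count of 1021. These 4 are the members with an unadjusted p under 0.05. Snhg16 was at 0.48 ± 0.30 in the authors' deposited table with a mean normalised count of 78.3, the lowest of the 9, and an interval of -0.099 to 1.06.

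Snhg6 (0.37 ± 0.36), Zfas1 (0.24 ± 0.21), Snhg15 (0.19 ± 0.25) and Snhg8 (0.10 ± 0.20) had intervals that include 0 in the authors' deposited table, as did Snhg16. Zfas1, 3.67-fold apart in PANC1, had a KPC interval of -0.18 to 0.66 on the log2 scale. Since genes at these levels lie above 0 as a whole, the 9 positive signs do not all hold after scaling: Snhg15 and Snhg8 were at -0.025 and -0.12 once fold changes were recentred on genes at 64 or more. The Gas5 call was lost in that setting (0.36, adjusted p = 0.218, Wald test) and after the running median over level was subtracted (0.34, adjusted p = 0.420, Wald test). The median of the 9 was then 0.26 and 0.34. Both Wald tests divided the shifted fold change by the unchanged listed standard error, with no new DESeq2 fit. All intervals of neighbours in the KPC order overlap.

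**Figure D2:**
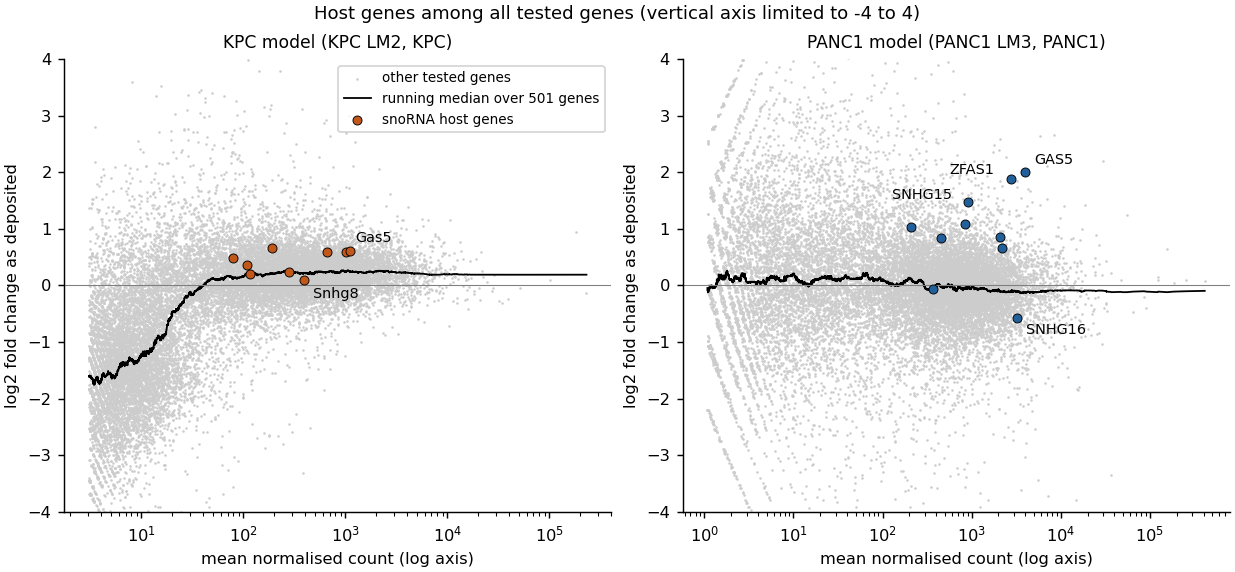
Log2 fold change as deposited (vertical axis, limited to -4 to 4) against mean normalised count (horizontal log axis) for tested genes of the KPC model (left) and the PANC1 model (right), with the host genes as filled points and the running median as a line. In KPC 6 of the 9 members lie above the line and Zfas1, Snhg15 and Snhg8 below it by 0.0055 to 0.13, while in PANC1 the 8 called positive members lie 0.77 or more above it.

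The values of both models can be set side by side only as listed. GAS5 was at 2.01 in PANC1 and 0.58 in KPC, SNHG5 at 0.86 and 0.60, and SNHG1 at 0.66 and 0.60, all as listed in the authors' deposited table of each model. SNHG12 and SNHG16 were at -0.05 and -0.57 in PANC1 and at 0.66 and 0.48 in KPC in the authors' deposited table of each. Since the numerator is not stated in either table, whether a sign is shared between the models cannot be told, and the difference between models was not tested.

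Mouse levels can be set side by side per length. Per kilobase of annotated exon (GENCODE M21), the mean normalised count in KPC was 462 for Snhg8, 382 for Snhg5, 378 for Snhg1 and 272 for Gas5. It was 94.7 for Zfas1, 94.1 for Snhg6, 86.0 for Snhg15 and 80.2 for Snhg12. Epb41l4aos, the mouse counterpart of EPB41L4A-AS1, lay between at 144.0. The spread of these levels over samples is not given, and the lengths take every annotated exon together, 3760 bases for the 25 transcripts of Gas5.

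The snoRNAs carried by these genes have rows of their own in the tables. In PANC1 their values centred near 0. Of 34 host and snoRNA pairs known for the human genes, 32 snoRNAs had a row. Their median log2 fold change was -0.04 in the authors' deposited table, 15 were positive and 17 negative, and 2 were called, both positive. Over all 335 tested snoRNA rows of PANC1 7.76% were called, and over all tested PANC1 genes 52.5%. The hosts were chosen with their fold changes known, so a snoRNA row below a high host is a description and no test.

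Both calls belong to GAS5: SNORD47 at 0.55 ± 0.17 and SNORD44 at 0.57 ± 0.25 in the authors' deposited table, against 2.01 ± 0.05 for the host. The other 8 GAS5 snoRNAs lay between -0.25 (SNORD81) and 0.28 (SNORD80) in the authors' deposited table. The 3 ZFAS1 snoRNAs were at -0.22 ± 0.26 (SNORD12), -0.10 ± 0.26 (SNORD12B) and -0.24 ± 0.32 (SNORD12C) in the authors' deposited table, about 2 on the log2 scale under the host. SNORA9, in SNHG15, was at -0.09 ± 0.19 in the authors' deposited table, which is 1.56 ± 0.20 under its host. The ± of such a difference is the root of the summed squares of both listed standard errors. It treats the rows as independent, although they come from the same libraries. SNORD87, in SNHG6, was at -0.78 ± 0.43 in the authors' deposited table. For SNHG1 the 7 snoRNA rows ran from -0.32 (SNORD30) to 0.17 (SNORD26) in the authors' deposited table. SNORA24 was at 0.36 ± 0.18 in the authors' deposited table, against 0.83 for SNHG8. The listed SNHG12 rows were SNORA16A (-0.09 ± 0.18), SNORA44 (0.0086 ± 0.51) and SNORD99 (-0.34 ± 0.40) in the authors' deposited table, against -0.05 for the host. SNORD1A (-0.28 ± 0.45), SNORD1B (0.25 ± 0.61) and SNORD1C (-0.49 ± 0.37) in the authors' deposited table lay above SNHG16 at -0.57. SNHG16 minus these rows was -0.29 ± 0.45, -0.82 ± 0.61 and -0.082 ± 0.37. SNORD26, SNORD28, SNORD29 and SNORD50A were under their hosts by 0.49 ± 0.33, 0.51 ± 0.27, 0.64 ± 0.32 and 0.92 ± 0.59. SNORA16A and SNORD99 were under SNHG12 by 0.035 ± 0.21 and 0.29 ± 0.41. SNHG12 minus SNORA44 was -0.063 ± 0.52. In size each of these, and each SNHG16 difference, is less than 2 standard errors of the difference. This describes the rows and is no test, neither for these pairs nor for the others. Host and snoRNA rows differ in depth: the snoRNA rows had mean normalised counts of 8.51 to 139 in the authors' deposited table, the hosts 206 to 3971. The kit is known to select polyadenylated RNA, which mature snoRNAs are not, so these rows are not a measure of mature snoRNA, and what part of them is unspliced host RNA was not tested.

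In the mouse, GENCODE M21 places 29 snoRNA loci inside 8 of the members, 9 of them in Gas5 and 8 in Snhg1. An exon of at least 1 annotated host transcript lies over 28 of the 29, so that reads could be counted for either gene. Only 8 of these loci had a row under the same name. The 5 box C/D snoRNAs among them are printed because they give the host and snoRNA values of one locus in KPC. Lines run 5′ to 3′ as in GENCODE M21 (GRCm38), and capitals mark the first TGATGA, the core of box C, and the last CTGA, box D; both were searched on the snoRNA strand alone.
Snord47 in Gas5 (chr1:161038082-161038158, plus strand): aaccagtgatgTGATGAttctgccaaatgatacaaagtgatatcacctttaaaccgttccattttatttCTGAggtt
Snord22 in Snhg1 (chr19:8725866-8725991, plus strand): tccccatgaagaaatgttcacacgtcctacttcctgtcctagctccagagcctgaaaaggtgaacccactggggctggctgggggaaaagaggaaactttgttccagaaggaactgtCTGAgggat
Snord12 in Zfas1 (chr2:167065276-167065365, plus strand): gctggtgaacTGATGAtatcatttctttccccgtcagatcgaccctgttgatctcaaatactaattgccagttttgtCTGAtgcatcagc
Snord87 in Snhg6 (chr1:9942463-9942549, minus strand): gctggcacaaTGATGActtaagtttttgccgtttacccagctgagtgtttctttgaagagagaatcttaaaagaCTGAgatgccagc
Snord99 in Snhg12 (chr4:132310691-132310764, plus strand): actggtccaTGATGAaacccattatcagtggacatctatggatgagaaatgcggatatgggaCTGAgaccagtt
No TGATGA was found in Snord22. Snord47 was at 0.98 ± 0.38 in the authors' deposited table, against 0.58 for Gas5, and Snord22 at 0.88 ± 0.32, against 0.60 for Snhg1. Snord99 was at 0.44 ± 0.45 and Snord87 at 0.13 ± 0.22 in the authors' deposited table, beside hosts at 0.66 and 0.37. Snord12 was at -0.40 ± 0.36 in the authors' deposited table, against 0.24 for Zfas1. None of the 8 snoRNA rows was called, while 3.03% of all 99 tested KPC snoRNA rows were. Of the 8, 7 were positive and 4 lay below their host. Snord22 and Snord87 had mean normalised counts of 3171 and 1829 in the authors' deposited table, above the 1122 and 108 of their hosts, although a host row counts a longer RNA.

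**Figure D3:**
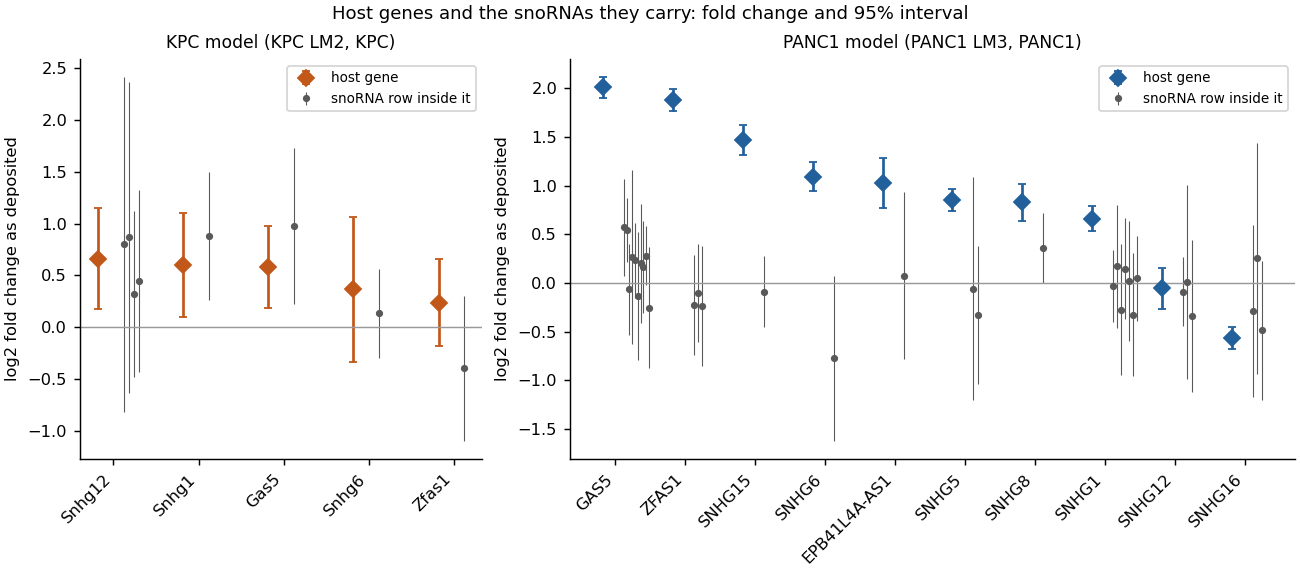
Log2 fold change as deposited (vertical axis) of each host gene (diamond) and of the snoRNA rows inside it (dots) in the KPC model (left) and the PANC1 model (right), with 95% intervals from the listed standard errors. In PANC1 the GAS5 snoRNAs lie between -0.25 and 0.57 under a host at 2.01, while in KPC host and snoRNA intervals overlap.

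Over all snoRNA rows, PANC1 had 14 positive and 12 negative calls of 335 tested (7.76%, against 52.5% of all genes, at a median mean normalised count of 16.7) and KPC 3 positive and 0 negative calls of 99. In KPC that is 3.03%, against 10.4% of all tested KPC genes. In PANC1 the smallest adjusted p-values belonged to SNORA47 (1.59 ± 0.23), SNORA23 (0.49 ± 0.09) and SNORA104 (0.43 ± 0.08) on the positive side and SNORD134 (-1.11 ± 0.21) on the negative side of the authors' deposited table. The KPC calls were Snora81 (1.37 ± 0.29), Snord118 (1.45 ± 0.34), which encodes the U8 snoRNA, and Snora23 (0.63 ± 0.20) in the authors' deposited table. At an unadjusted p under 0.05 there were 14 KPC rows.

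Other snoRNA host RNAs did not move as one group. In PANC1, 7 were called positive and 9 called negative of 21 tested, with a median of -0.24. Called positive in the authors' deposited table were SNHG17 (1.26 ± 0.12), SNHG29 (0.67 ± 0.06), MEG9 (0.90 ± 0.24), SNHG11 (0.41 ± 0.13), MEG8 (0.24 ± 0.07), SNHG14 (0.18 ± 0.08) and, at a mean normalised count of only 2.54, SNHG22 (3.88 ± 1.49). Called negative in the authors' deposited table were DANCR (-0.99 ± 0.15), SNHG30 (-1.06 ± 0.23), SNHG19 (-0.99 ± 0.21), SNHG4 (-0.61 ± 0.14), SNHG3 (-0.27 ± 0.07), SNHG7 (-0.35 ± 0.11), SNHG9 (-0.71 ± 0.23), SNHG25 (-0.85 ± 0.34) and SNHG10 (-0.39 ± 0.17). SNHG16 thus has its sign in common with these 9, and GAS5 and ZFAS1 exceed every positive one but SNHG22. In KPC, where 7 of 13 had a positive value, 1 was called positive and 1 called negative: Taf1d, a subunit of the RNA polymerase I selectivity factor, at 0.65 ± 0.21, and Snhg11 at -2.13 ± 0.66 with a mean normalised count of 15.7, both in the authors' deposited table. That is 15.4% called, against 10.4% of all tested KPC genes. Epb41l4aos, 340 bases from Epb41l4a, was at 0.27 ± 0.31 in the authors' deposited table and was not called.

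Among protein-coding genes that carry snoRNAs in introns, PANC1 had 19 positive and 6 negative calls of 33, with a median of 0.17. RPL3 (0.84 ± 0.05), RPL37 (0.62 ± 0.04), RPL32 (0.48 ± 0.05) and RPL13A (0.53 ± 0.05) had the smallest adjusted p-values on the positive side of the authors' deposited table. The chaperone gene HSPA8 (-0.86 ± 0.06) and the nucleolin gene NCL (-0.47 ± 0.05) were on the negative side of the authors' deposited table. KPC had 2 positive and 0 negative calls of 34, Rps20 (0.59 ± 0.19) and Rpl21 (0.80 ± 0.27) in the authors' deposited table. The list of cytosolic ribosomal protein genes had 57 positive and 5 negative calls of 82 in PANC1 (median 0.30, 70 with a positive value), and 3 and 0 were called of 80 in KPC (60 with a positive value, median 0.19, below the 0.22 of all KPC genes at 64 or more, with 9 at an unadjusted p under 0.05). The called shares in KPC were 5.88% of protein-coding hosts and 3.75% of ribosomal protein genes. Over all tested KPC genes 10.4% were called, and over those at 64 or more 12.7%.

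Genes that act on snoRNAs and host RNAs had calls in both directions in PANC1. So did all PANC1 genes at 64 or more, of which 69.3% were called, 32.7% positive and 36.5% negative. Beside that, the shares called were 88.2% of snoRNA-bound proteins and 80.0% of decay factors. They were 75.8% of protein-coding hosts, 76.2% of other host RNAs and 75.6% of ribosomal protein genes. For the TOP, rRNA and MYC and mTOR lists described next they were 64.7%, 69.2% and 71.4%. The snoRNA-bound proteins and their assembly factors had 10 positive and 5 negative calls of 17, with a median of 0.40. SNU13 (0.89 ± 0.07), which binds box C/D RNA, NOLC1 (0.54 ± 0.05), the box H/ACA protein gene NOP10 (0.56 ± 0.06) and the assembly factor ZNHIT6 (0.62 ± 0.06) were positive in the authors' deposited table. Of the 5 called negative, RUVBL1, an assembly ATPase gene, was listed at -1.16 ± 0.07 and SHQ1 at -0.54 ± 0.13. RUVBL2 (-0.30 ± 0.08) and NOP58 (-0.23 ± 0.06) also had negative calls in the authors' deposited table. Nonsense-mediated decay factors had 4 positive and 4 negative calls of 10 (median -0.06): the helicase gene UPF1 was at -0.49 ± 0.07, SMG9 at 0.45 ± 0.08 and UPF2 at 0.30 ± 0.07 in the authors' deposited table. In KPC the Wald test called 0 of 17 and 0 of 10 in these lists, with 0 and 2 at an unadjusted p under 0.05. Over all tested KPC genes only 10.4% were called, and over those at 64 or more 12.7%.

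TOP-bearing translation factor genes had 6 positive and 5 negative calls of 17 in PANC1, among them EIF4B (0.53 ± 0.05) and EEF1G (0.41 ± 0.05) against EIF3E (-0.65 ± 0.05) and EEF1D (-0.49 ± 0.07) in the authors' deposited table. In KPC the Wald test called 0 of 16, with 1 at an unadjusted p under 0.05. Polymerase I and rRNA processing genes had 13 positive and 5 negative calls of 26 in PANC1, with POLR1B at 0.73 ± 0.07 and UBTF at -0.95 ± 0.06 in the authors' deposited table. KPC had 2 positive and 0 negative calls of 26, Taf1b (1.06 ± 0.25) and Polr1d (0.65 ± 0.20) in the authors' deposited table. The called shares in KPC were 0.00% of the TOP list and 7.69% of the rRNA list, against 10.4% of all tested KPC genes.

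MYC, the transcription factor known to drive ribosome production, was at 1.46 ± 0.06 in PANC1 and -0.63 ± 0.27 in KPC in the authors' deposited table of each (adjusted p = 2.9e-114 in PANC1 and 0.106 in KPC, DESeq2's Wald test). LARP1, which binds TOP mRNAs, was at -0.24 ± 0.06 in PANC1 in the authors' deposited table. The MYC and mTOR list had 6 positive and 9 negative calls of 21 in PANC1, with MXD1 (1.69 ± 0.11) and MXI1 (0.93 ± 0.10) against MXD4 (-1.44 ± 0.14) and EIF4EBP2 (-0.68 ± 0.07) in the authors' deposited table, and 1 positive and 1 negative call of 22 in KPC, Deptor (0.70 ± 0.24) and Eif4ebp1 (-0.75 ± 0.21) in the authors' deposited table. In KPC that is 9.09% called, against 10.4% of all tested KPC genes.

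**Figure D4:**
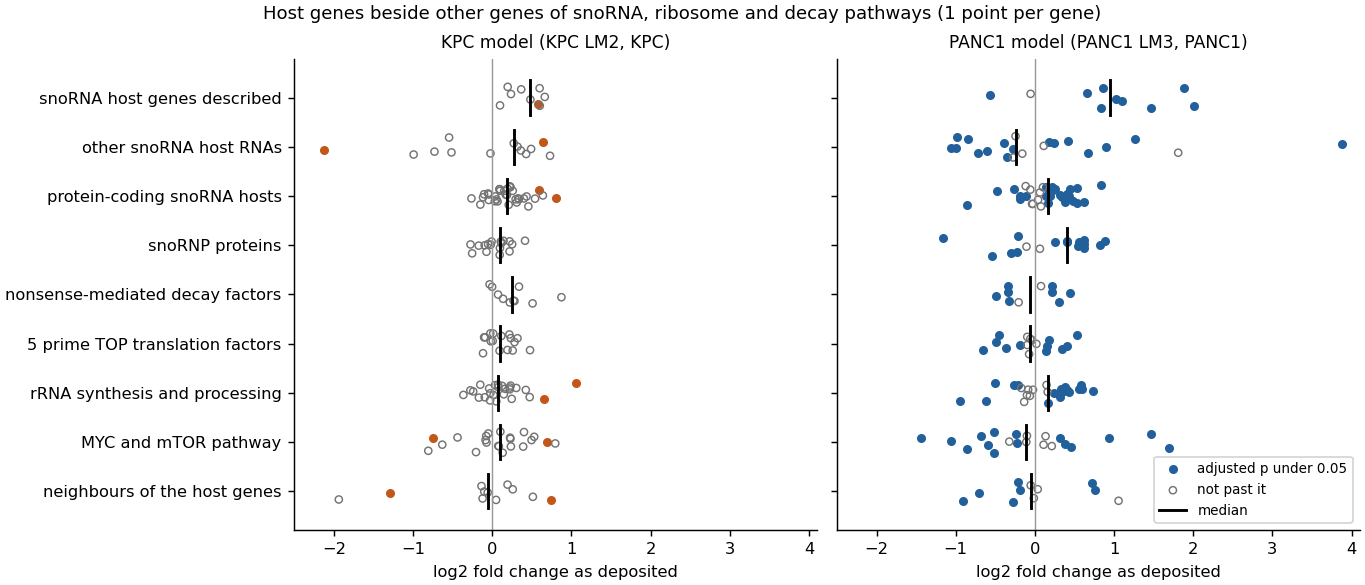
Log2 fold change as deposited (horizontal axis) of the host genes and of genes in 8 related lists (rows), 1 point per gene, for the KPC model (left) and the PANC1 model (right); filled points have an adjusted p under 0.05 and black lines are medians. The PANC1 median is 0.94 for the host genes described and -0.24 for the other snoRNA host RNAs.

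Genes listed as neighbours of the hosts had values on both sides of 0. The 11 counted here are a chosen list. Syncrip and Ccm2 are in it but are not the nearest protein-coding genes to Snhg5 and Snhg15 in GENCODE M21. The tables do not state that counting used strand, so reads of a host and of a gene that overlaps it on the other strand cannot be told apart. In the mouse annotation Gas5 overlaps Zbtb37, Zfas1 overlaps Znfx1 and Snhg6 overlaps Mcmdc2 in this way. In PANC1, ZNFX1 was at -0.05 ± 0.06 in the authors' deposited table beside ZFAS1 at 1.88, and ZBTB37 at -0.22 ± 0.09 beside GAS5 at 2.01. EPB41L4A was at -0.014 ± 0.18 in the authors' deposited table beside EPB41L4A-AS1 at 1.03. SLC3A2, which in the mouse starts 105 bases from Snhg1 and runs the other way, was at 0.76 ± 0.05 in PANC1 in the authors' deposited table, close to SNHG1 at 0.66. TRNAU1AP was at -0.91 ± 0.12 in the authors' deposited table beside SNHG12 at -0.05, and PRSS12 at 0.72 ± 0.26 beside SNHG8 at 0.83. SYNCRIP (-0.71 ± 0.05) and CCM2 (-0.28 ± 0.08) were negative in the authors' deposited table, beside SNHG5 and SNHG15 on the positive side. Of the 11 neighbour genes, 2 were positive and 5 negative past the threshold in PANC1, which is 63.6%. Over all tested PANC1 genes 52.5% were called, and over those at 64 or more 69.3%. In KPC, Tcf24, the nearest protein-coding gene to Snhg6 apart from the overlapping Mcmdc2, was called at -1.29 ± 0.44 in the authors' deposited table. Slc3a2 and Znfx1 were at -0.10 ± 0.20 and 0.05 ± 0.22 in KPC in the authors' deposited table, beside Snhg1 at 0.60 and Zfas1 at 0.24. Syncrip was at 0.51 ± 0.22 beside Snhg5 at 0.60 and was not called. Prss12 (0.26 ± 0.33) and Trnau1ap (0.19 ± 0.22) were also positive and not called. Of the 11 neighbours 5 had a positive KPC value, with 1 called positive and 1 called negative. That is 18.2% called, against 10.4% of all tested KPC genes and 12.7% of those at 64 or more.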

How the data were processed

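Total RNA from 12 samples was sequenced after library preparation (TruSeq RNA v2), per the labels' protocols. Per the submitters' processing notes, reads passed through DESeq2 1.24, featureCounts 2.0.0, STAR 2.7.6a and MultiQC 1.9 in an order not stated, on builds mm39 and hg19; settings, annotation and model design are not given in the sources used here. The authors deposited 1 comparison table per model without values per library. Its mean normalised count is a signal the authors computed, taken to be the DESeq2 base mean. Fold changes were deposited as log2 values, each with a standard error, with a score (the Wald statistic) and p-values, raw and Benjamini-Hochberg adjusted. Normal p-values recomputed from the Wald statistic differed from the deposited ones by at most 5.0e-08. A signed negative log10 p, also a deposited score, was not used.

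Called genes have a deposited adjusted p under 0.05. The members and the 10 gene lists were chosen with earlier results of these data known. Named genes are all members, all called other host RNAs, MYC, LARP1, listed neighbours, and up to 4 genes per list, model and direction with the smallest adjusted p; further contrasts and SNHG or snoRNA rows were named after their values were seen. A neighbour gene that the rule selects is not reported here. Human host and snoRNA pairs came from general knowledge, since no human annotation was used here. No likeness of pattern between genes could be measured without values per sample. Intervals (95%) use the listed standard error and a normal distribution. With nothing in the labels on separate cultures or animals, p-values may cover technical spread alone. Mouse exons, snoRNA loci, overlaps and distances came from GENCODE M21 and promoters from RefSeq (GRCm38). The counted list of neighbours was chosen and is not the list of nearest genes in GENCODE M21. The 7 alternatives were a threshold of 0.01, a size limit (log2 fold change beyond 1 in either direction), adjustment over every gene that has a p or over genes at 64 or more alone, recentring on those genes, removal of a running median over neighbouring genes by level, and a t distribution with 4 degrees of freedom. The steps were tested on simulated data. Software was pandas 2.3.3 and numpy 2.4.6 under Python 3.11.15, with scipy 1.17.1; plots were made in matplotlib 3.10.9.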

Additional observations from a re-analysis of the deposited data

How the results depend on the processing

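Under 7 alternatives the PANC1 count of 9 called host genes was kept in 6 and was 5 when an absolute log2 fold change over 1 was also required. The PANC1 median stayed between 0.93 and 0.98. In KPC the single call, Gas5, was lost in 5 alternatives, each with a count of 0: an adjusted p of 0.01, a log2 fold change over 1, recentring, subtraction of the running median, and the t distribution, under which 0 KPC genes were called, 2132 genes and 1 host gene having an unadjusted p under 0.05. Recentring shifts KPC fold changes by 0.22 and put the share of positive calls over all genes at 23.5%, against 55.7% as deposited; it was 83.4% at 64 or more, 66.0% at 0.01 and 36.9% with the size limit. Calls over all KPC genes were 2079 as deposited, 889 at 0.01, 1303 with the size limit, 1345 at 64 or more and 1133 after the running median; in PANC1 they were 9361, against 2759 with the size limit. Signs turned for Snhg15 (-0.025) and Snhg8 (-0.12) on recentring, and for Zfas1 (-0.0055), Snhg15 (-0.022), Snhg8 (-0.13) and SNHG12 of PANC1 (0.00099) after the running median; the cause was not tested. Counts of the 10 lists moved by more than 1.5 times in 29 of 70 cases in KPC and 17 of 70 in PANC1. No paired analysis was possible because the columns hold no value per library; leaving out replicates was not possible for the same reason. With listed standard errors of 0.20 to 0.36, the KPC table shows only larger differences for these genes than the PANC1 table, with 0.05 to 0.13; depth per library is unknown.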
